A study of Mus musculus with 4 samples.

Results

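The complement genes described here are C1ra, C1s1, C4b, C2, C3, Cfb and Serping1, 7 genes found by symbol among the 32285 genes counted in each of 4 single-cell RNA sequencing (scRNA-seq) libraries of cultured mouse adipose cells. A cell was a barcode with 5000 to 75000 unique molecular identifiers (UMIs, each marking 1 captured RNA molecule), 200 to 7500 genes and under 10% of its UMIs from mitochondrial genes. This rule kept 28262 cells, 7629 in the iWAT_DFAT library, 6464 in eWAT_DFAT, 7424 in iWAT_ASPC and 6745 in eWAT_ASPC.

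De-differentiated fat (DFAT) cells are fibroblast-like cells that arise when mature adipocytes lose their lipid, here in ceiling culture, in which floating adipocytes attach to the upper wall of a flask. They came from adipocytes of inguinal (iWAT, subcutaneous) or epididymal (eWAT, visceral) white fat. The cells set against them were cultured from the stromal vascular fraction (SVF) of the same depots, are labelled SVF cells, and are called adipose stem and progenitor cells (ASPCs) in the study. All were primary cultures from male C57BL/6J mice on chow, and cells were sorted with 7-AAD, a dye that enters dead cells. Each condition was 1 library, and the labels give neither the age of the mice nor how many were pooled, so no spread between cultures was measured and no test across samples was possible.

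Complement is a cascade of plasma proteins that tags microbes and cell debris for removal. In the classical pathway, the proteases C1r and C1s are held by the recognition protein C1q and cut C4 and C2, whose products form an enzyme that cuts C3, the protein on which all routes converge. Factor B, made from Cfb, forms the C3-cutting enzyme of the alternative pathway and is itself cut by factor D (adipsin, from Cfd), which is best known as a product of adipocytes. The C1 inhibitor, made from Serping1, blocks C1r and C1s. The liver makes most of the complement in plasma, but fibroblasts and fat tissue make it too, and several of these genes are known to respond to interferons, interleukin-1 and interleukin-6.

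The members lie on 3 chromosomes of the mouse genome (build GRCm38, GENCODE annotation). C1ra (chr6:124512405-124523443, plus strand) and C1s1 (chr6:124530345-124542359, minus strand) face each other with 6901 bases between them. On the minus strand of chromosome 17 are C4b (chr17:34728380-34743882), Cfb (chr17:34856374-34862518) and C2 (chr17:34862604-34898265) in the major histocompatibility region, with 85 bases between C2 and Cfb, and C3 (chr17:57203970-57228136) at a distance from them. Serping1 (chr2:84765387-84775444) is on the minus strand of chromosome 2. C1ra, C1s1 and C4b each have a near-identical copy, C1rb, C1s2 and C4a, so their counts are uncertain where reads fit both copies. The copies, looked up after the values were seen, held at most 0.501, 0.735 and 0.191 UMIs per 1000000 UMIs of a library's cells (CPM).

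The promoters of C3, C1s1 and C1ra are shown so that the letters around the annotated starts of a shared substrate and its upstream proteases can be read beside their levels. They are the 3 members for which RefSeq (GRCm38.p6) gave a window here, from 250 bases before to 50 bases after the start that RefSeq annotates, printed 5′ to 3′ on the strand of the gene. The windows are chr17:57228087-57228386 (minus strand) for C3, chr6:124542310-124542609 (minus strand) for C1s1 and chr6:124512371-124512670 (plus strand) for C1ra. The starts of the C3 and C1s1 windows are those of the gene positions above, but the RefSeq start of C1ra (chr6, base 124512621) lies 216 bases downstream of the GENCODE gene start, so most of its window is inside the gene as given above. Capitals mark letters that match a motif searched, and positions count from the RefSeq start.
C3: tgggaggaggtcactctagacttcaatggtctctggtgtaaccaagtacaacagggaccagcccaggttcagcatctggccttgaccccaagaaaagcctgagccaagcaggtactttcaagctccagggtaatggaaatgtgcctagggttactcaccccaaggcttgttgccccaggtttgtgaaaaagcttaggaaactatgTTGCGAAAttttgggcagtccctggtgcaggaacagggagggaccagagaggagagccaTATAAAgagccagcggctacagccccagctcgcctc
C1s1: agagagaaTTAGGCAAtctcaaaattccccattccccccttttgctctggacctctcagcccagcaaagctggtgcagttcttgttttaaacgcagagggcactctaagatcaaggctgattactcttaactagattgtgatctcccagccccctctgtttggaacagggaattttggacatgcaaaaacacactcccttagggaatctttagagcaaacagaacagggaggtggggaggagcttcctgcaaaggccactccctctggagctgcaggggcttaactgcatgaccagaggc
C1ra: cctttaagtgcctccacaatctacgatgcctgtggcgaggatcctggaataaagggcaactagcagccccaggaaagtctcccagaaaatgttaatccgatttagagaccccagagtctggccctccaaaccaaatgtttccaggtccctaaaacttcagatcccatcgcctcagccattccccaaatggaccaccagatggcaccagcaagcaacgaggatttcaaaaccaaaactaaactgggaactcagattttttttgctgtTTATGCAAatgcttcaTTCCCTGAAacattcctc
The motifs, searched on both strands, were the C/EBP core TTGCNNAA, the STAT motif TTCNNNGAA, the interferon core GAAANNGAA, the TATA box TATAAA and the κB consensus. Each of the 3 windows held a match to the C/EBP core, as did 10.8% of all 32817 promoter windows of this length. In C3 it was TTGCGAAA at -45 to -38. In C1s1 it was TTAGGCAA on the other strand at -242 to -235, and in C1ra TTATGCAA on the other strand at 16 to 23. C1ra also held a STAT match, TTCCCTGAA, at 32 to 40 (8.29% of windows hold one), and C3 a TATAAA at 14 to 19 (13.6%). The letters of the interferon core (8.55% of windows) and of the κB consensus (4.5%) were not in these 3 windows, and a second, overlapping C1s1 window held none of the motifs. No matches overlapped, and a match is a run of letters, not a shown binding site.

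The cells of a library held 183664704 to 199357348 UMIs, with a median of 22111 to 27617 UMIs and 5057 to 5400 genes per cell. Libraries shared 13 to 20 cell barcodes per pair, at most 0.297% of the cells of either. At least 3 of 11 fibroblast and ASPC markers had a UMI in 94.1% to 99.5% of the cells, and their summed level was 8019 CPM in iWAT_DFAT, 2423 in eWAT_DFAT, 7848 in iWAT_ASPC and 7093 in eWAT_ASPC. In droplets with 1 to 100 UMIs, taken as free RNA, the members stood at 0.779 to 1.67 times their level in the cells of the same library. Intervals below are exact 95% intervals (Poisson for CPM, conditional binomial for ratios, Clopper-Pearson for shares of cells) and cover counting error only. In a library's sum, fewer expressing cells and less RNA per cell cannot be told apart.

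The initiating proteases of the classical pathway were both highest in iWAT_DFAT. C1ra stood at 64.2 CPM (63.0 to 65.3) in iWAT_DFAT, 10.8 (10.3 to 11.3) in eWAT_DFAT, 8.97 (8.56 to 9.40) in iWAT_ASPC and 15.6 (15.01 to 16.1) in eWAT_ASPC. C1s1 stood at 94.1 CPM (92.7 to 95.5) in iWAT_DFAT, 14.8 (14.3 to 15.4) in eWAT_DFAT, 11.045 (10.6 to 11.5) in iWAT_ASPC and 20.9 (20.3 to 21.6) in eWAT_ASPC. Both genes thus had the same order of libraries, iWAT_DFAT, eWAT_ASPC, eWAT_DFAT and iWAT_ASPC, and no neighbouring intervals overlapped.

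Of the proteins that these proteases cut, C4 was highest in iWAT_DFAT at the RNA level and C2 was not. C4b, whose product anchors the cascade to a surface, was at 19.4 CPM (18.7 to 20.01) in iWAT_DFAT, 2.71 (2.48 to 2.96) in eWAT_DFAT, 4.08 (3.803 to 4.37) in iWAT_ASPC and 4.55 (4.26 to 4.86) in eWAT_ASPC. The ASPC intervals overlapped. C2, the catalytic partner of C4, was at 2.55 CPM (2.33 to 2.80) in iWAT_DFAT, 1.51 (1.34 to 1.70) in eWAT_DFAT, 2.68 (2.46 to 2.92) in iWAT_ASPC and 3.27 (3.02 to 3.53) in eWAT_ASPC. It was the only member that was not highest in iWAT_DFAT, and its intervals in the iWAT libraries overlapped.

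C3 and Cfb, the substrate and the enzyme of the amplification loop, had the widest ranges of the members. C3 was at 271 CPM (269 to 274) in iWAT_DFAT, 87.1 (85.8 to 88.5) in eWAT_DFAT, 8.81 (8.40 to 9.23) in iWAT_ASPC and 91.97 (90.6 to 93.3) in eWAT_ASPC. The eWAT libraries were close to each other, with the iWAT libraries on either side of them. Cfb was at 49.7 CPM (48.7 to 50.7) in iWAT_DFAT, 10.4 (9.90 to 10.8) in eWAT_DFAT, 1.69 (1.51 to 1.88) in iWAT_ASPC and 3.13 (2.89 to 3.39) in eWAT_ASPC. It was the only member that was higher in both DFAT libraries than in both ASPC libraries.

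Serping1, which encodes the inhibitor of the initiating proteases, ran with them rather than against them. It was at 256 CPM (254 to 259) in iWAT_DFAT, 69.8 (68.6 to 71.0) in eWAT_DFAT, 39.1 (38.3 to 40.01) in iWAT_ASPC and 107 (106 to 109) in eWAT_ASPC, the order of libraries seen for C1ra and C1s1. Summed over the 7 genes, the level was 758 CPM in iWAT_DFAT, 197 in eWAT_DFAT, 76.4 in iWAT_ASPC and 247 in eWAT_ASPC. C3 gave 35.8%, 44.2% and 37.3% of these UMIs in iWAT_DFAT, eWAT_DFAT and eWAT_ASPC but 11.5% in iWAT_ASPC, where Serping1 gave 51.2%.

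**Figure D1:**
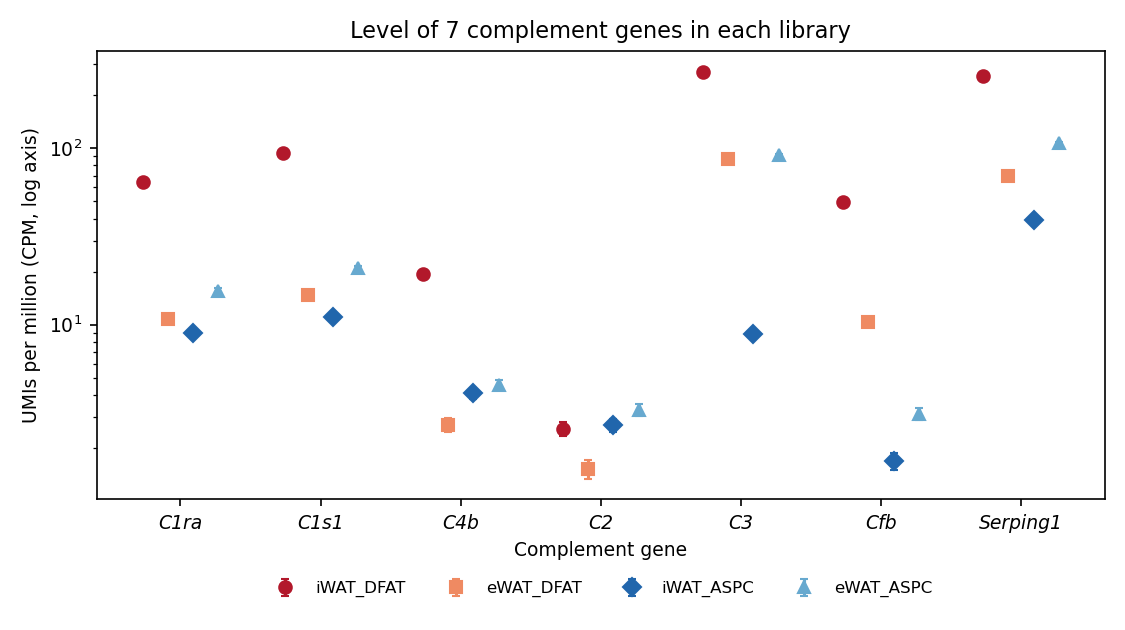
Level of each complement gene (x axis) in the 4 libraries, in CPM on a log axis; points are 1 library each and bars are exact 95% Poisson intervals. The iWAT_DFAT library is the highest for every gene but C2, and C3 spans 271 CPM there to 8.81 CPM in iWAT_ASPC.

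Comparing depots within DFAT cells asks how cells derived from subcutaneous and visceral adipocytes differ. Of the 7 members, 6 were at least 2-fold higher in iWAT_DFAT than in eWAT_DFAT, against 8.29% of the 10384 genes at 5 CPM or more in either library, and 0 were at least 2-fold lower, against 3.95%. The log2 ratio was 2.84 for C4b (2.70 to 2.97), 2.67 for C1s1 (2.61 to 2.72), 2.57 for C1ra (2.50 to 2.64), 2.26 for Cfb (2.19 to 2.33), 1.88 for Serping1 (1.85 to 1.90) and 1.64 for C3 (1.61 to 1.67). C2, at 0.75 (0.54 to 0.97), was within 2-fold. The median of the members was 2.26 and that of all genes 0.09. Fibroblast markers ran the same way: 9 of the 11 ASPC markers were at least 2-fold higher in iWAT_DFAT and 0 lower, with a median log2 ratio of 1.86. Their part in the complement ratios was not tested.

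The same depots compared within ASPCs gave the other sign. Of the 7 members, 0 were at least 2-fold higher in iWAT_ASPC than in eWAT_ASPC, against 2.94% of 10135 genes, and 2 were at least 2-fold lower, C3 and Serping1, against 3.94%. The log2 ratio of C3 was -3.38 (-3.46 to -3.31), so that its level was 10.4-fold higher in eWAT_ASPC, and this ratio stood at percentile 0.444 among all genes. That of Serping1 was -1.46 (-1.49 to -1.42). The other members had log2 ratios from -0.92 (C1s1) to -0.16 (C4b), within 2-fold, and the median of the 7 was -0.89 against 0.05 for all genes. With every cell weighted equally, C1s1 (-1.05) and Cfb (-1.21) were past 2-fold as well. Of the ASPC markers, 1 of 11 was at least 2-fold higher and 1 lower, with a median of 0.11. Mesothelial markers ran with the members here, since 6 of 7 at 5 CPM or more were at least 2-fold lower in iWAT_ASPC and 1, the keratin gene Krt19 (named after its values were seen), was higher. Values without the cells that carry them are given below.

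Comparing DFAT cells with ASPCs of the same depot asks how adipocyte-derived cells differ from the resident progenitors. In iWAT, 6 of 7 members were at least 2-fold higher in iWAT_DFAT than in iWAT_ASPC, against 9.91% of 10426 genes, and 0 were at least 2-fold lower, against 5.18%. C3 was 30.8-fold higher (log2 4.95, 4.88 to 5.02) and Cfb 29.5-fold higher (log2 4.88, 4.72 to 5.04). C1s1, C1ra, Serping1 and C4b had log2 ratios of 3.09, 2.84, 2.71 and 2.25. C2 had a log2 ratio of -0.07 with an interval of -0.25 to 0.11, and so stood apart from the other 6. Of the 11 ASPC markers, 6 were at least 2-fold higher and 1 lower in iWAT_DFAT, with a median log2 ratio of 1.32, and their part in the complement ratios was not tested.

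In eWAT the members split. Cfb was at least 2-fold higher in eWAT_DFAT than in eWAT_ASPC, with a log2 ratio of 1.72 (1.59 to 1.86), so that 1 of 7 members was higher against 6.44% of 10298 genes. C2 was at least 2-fold lower, at -1.11 (-1.32 to -0.91), so that 1 of 7 was lower against 6.67%, and counts this small are not read as a result about the members. C2 was under the 5 CPM that the genes behind this share meet. Over genes at 1 CPM or more, a minimum that C2 meets, the share was 8.15%. C3 had a log2 ratio of -0.08 (-0.11 to -0.05), and C4b, Serping1, C1ra and C1s1 had ratios of -0.75, -0.62, -0.53 and -0.50. The C2 ratio was -0.39 without cells that carry mesothelial markers, which is within 2-fold, and the C3 ratio was then 0.19. ASPC markers were lower too, 6 of 11 by at least 2-fold and 0 higher, with a median log2 ratio of -1.68.

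**Figure D2:**
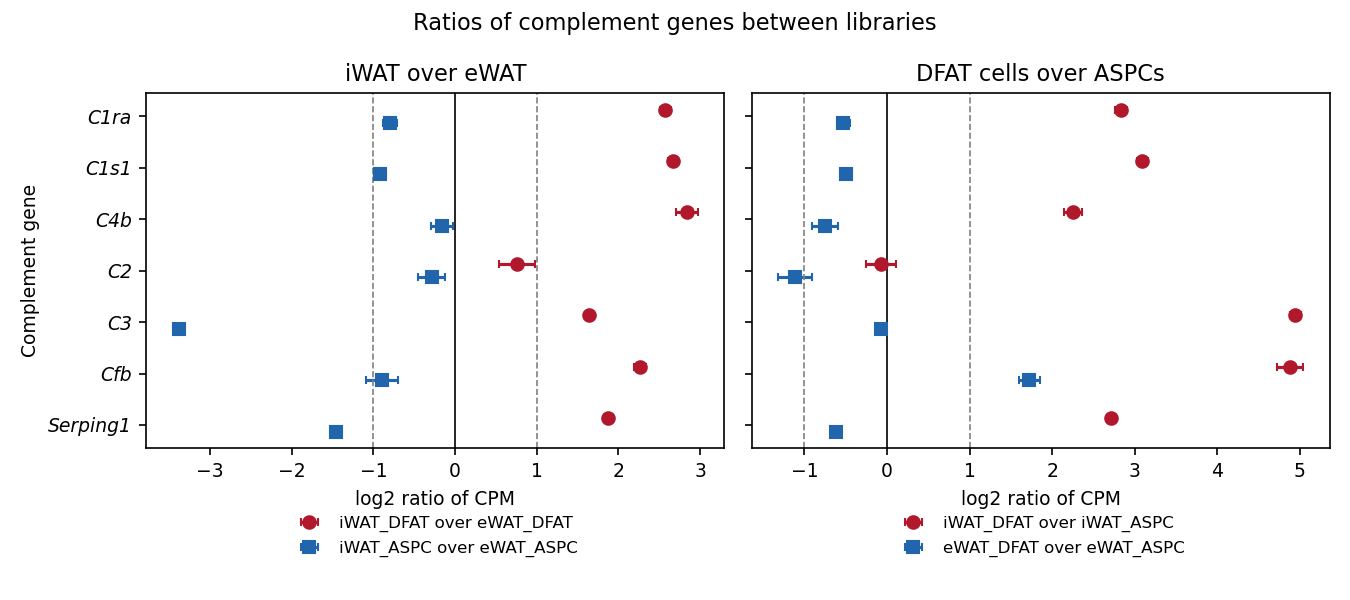
log2 ratio of CPM of each complement gene between depots (left) and between DFAT cells and ASPCs (right), 1 library against 1; bars are exact 95% conditional binomial intervals, the solid line is no difference and dashed lines are 2-fold. The depot ratios lie between 0.75 and 2.84 in DFAT cells and between -3.38 and -0.16 in ASPCs.

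The depot ratio was thus above 0 in DFAT cells and below 0 in ASPCs for each member, except that C2 in ASPCs changed sign in 3 of the alternatives given at the end. The DFAT log2 ratio minus the ASPC log2 ratio was 5.02 for C3 (4.95 to 5.10), 3.59 for C1s1 (3.49 to 3.68), 3.37 for C1ra (3.26 to 3.47) and 3.33 for Serping1 (3.28 to 3.38). It was 3.16 for Cfb (2.95 to 3.36), 3.00 for C4b (2.80 to 3.19) and 1.04 for C2 (0.77 to 1.31). The comparisons share libraries, and with 1 library per condition the cell kind, the culture and the library cannot be told apart.

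To compare shares of cells at equal depth, every cell was thinned to 5000 UMIs. A C3 UMI was then seen in 56.4% of iWAT_DFAT cells (55.3 to 57.5), 25.2% of eWAT_DFAT cells (24.2 to 26.3), 4.22% of iWAT_ASPC cells (3.77 to 4.70) and 26.4% of eWAT_ASPC cells (25.4 to 27.5). Without thinning the shares were 84.3%, 58.4%, 13.9% and 55.8%. The eWAT libraries were again close, with overlapping intervals. Serping1 was seen in 56.5%, 22.8%, 15.1% and 36.5% of thinned cells in the same order of libraries, and in 82.2%, 52.1%, 39.6% and 75.8% of whole cells. C1s1 was seen in 36.8%, 7.72%, 5.70% and 10.4% of thinned cells (75.0%, 27.3%, 21.4% and 34.8% of whole cells). Both thus kept the order of libraries that their CPM had.

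The other members were seen in under 8% of thinned cells outside iWAT_DFAT. C1ra was seen in 27.1% of iWAT_DFAT, 5.41% of eWAT_DFAT, 4.88% of iWAT_ASPC and 7.81% of eWAT_ASPC cells (67.5%, 23.6%, 19.6% and 30.4% of whole cells). Cfb was seen in 19.3%, 4.01%, 0.889% and 1.82% (42.4%, 11.1%, 3.91% and 5.97% of whole cells). C4b was seen in 9.46%, 1.41%, 2.22% and 2.62% (24.1%, 4.50%, 8.06% and 8.61% of whole cells). C2 stayed under 2% everywhere, at 1.27%, 0.897%, 1.40% and 1.88% (5.35%, 3.65%, 6.30% and 7.83% of whole cells).

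These shares were read beside cells that carry markers of another type, and background below means the level in such cells. Whether the members' RNA in them was their own or free RNA was not tested. In eWAT_DFAT, 1683121 droplets taken as free RNA held 7408127 UMIs in sum. Whole cells there held a mean of 2.005 UMIs of Serping1. In 142 iWAT_ASPC cells with 3 or more glial markers (median 11393 UMIs, against 24930 over all cells), the thinned share was 0.704% for C3 (0.0178 to 3.86) and 4.93% for Serping1 (2.00 to 9.89). In 168 eWAT_ASPC cells with 3 or more endothelial markers (median 17136 UMIs, against 27617), C3 was seen in 11.3% (6.95 to 17.1). Both are under the shares of the whole library, though for C3 in iWAT_ASPC the intervals overlap. In 158 endothelial-marker cells of eWAT_DFAT (median 12328 UMIs, against 27425), C3 was seen in 7.59% (3.99 to 12.9) and Serping1 in 15.2% (9.98 to 21.8), but in whole cells Serping1 stood at 65.8 CPM there against 69.9 CPM in the other cells. The share of Serping1 was thus under the library's 22.8% while its CPM was near that of the other cells. As the measures differ, its share in eWAT_DFAT is not clearly told from background. In iWAT_DFAT, 22 endothelial-marker cells (median 18698 UMIs, against 22111) had C3 in 13.6% (2.91 to 34.9) and Serping1 in 27.3% (10.7 to 50.2), under the library's shares. The shares of C1s1, C1ra, Cfb, C4b and C2 over all cells lay inside the wide intervals of these 22 cells. In whole cells, C1s1 was at 41.2 CPM (25.5 to 63.0) there against 94.2 in the other cells, and C1ra at 21.6 (10.8 to 38.6) against 64.3. Cfb was at 23.6 CPM (12.2 to 41.2) against 49.8 and C4b, from 3 UMIs, at 5.89 (1.21 to 17.2) against 19.4. The interval of C2, from 1 UMI, held the level of the other cells. Cfb was seen in 2.38% (0.652 to 5.98) of the endothelial-marker cells of eWAT_ASPC, and in 6.33% (3.08 to 11.3) of the 158 of eWAT_DFAT. The Cfb shares of the whole eWAT libraries, 4.01% and 1.82%, were no higher than these, so a share over all cells is not told from background there. Cfb UMIs were nevertheless concentrated in some cells of these libraries, with a variance over the mean of 4.42 in eWAT_DFAT and 1.54 in eWAT_ASPC, and the contrasts below show in which. The C4b share of iWAT_ASPC (2.22%) lay inside the interval of its glial-marker cells (2.11%, 0.438 to 6.05), and the C1ra share of eWAT_DFAT (5.41%) inside that of its endothelial-marker cells (4.43%, 1.80 to 8.92), so neither could be told from background at this depth. The same held for C1s1 (4.43%, 1.80 to 8.92) and C4b (0.633%, 0.016 to 3.48) in the endothelial-marker cells of eWAT_DFAT. It held for C2 in eWAT_ASPC (1.19% of endothelial-marker cells, 0.144 to 4.23), eWAT_DFAT (0 of 158 such cells, up to 2.31%) and iWAT_ASPC (0 of 142 glial-marker cells, up to 2.56%).

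C3 and Serping1 varied between cells more than sampling of 1 constant level would give, for which the variance over the mean is near 1. For C3 this value after thinning was 3.85 in iWAT_DFAT, 4.63 in eWAT_DFAT, 1.30 in iWAT_ASPC and 3.02 in eWAT_ASPC. For Serping1 it was 2.83, 3.23, 1.74 and 1.68 in the same order. The top 10% of iWAT_DFAT cells held 46.1% of the C3 UMIs and 42.04% of the Serping1 UMIs. In eWAT_DFAT they held 70.8% and 71.4%, so the UMIs were spread less evenly there, as a lower mean by itself also makes them.

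Cells with several members were most common in iWAT_DFAT. At 5000 UMIs, 2 or more of the 7 genes had a UMI in 59.5% of iWAT_DFAT cells, 16.7% of eWAT_DFAT cells, 6.18% of iWAT_ASPC cells and 23.0% of eWAT_ASPC cells. For 3 or more genes the shares were 37.8%, 5.89%, 1.27% and 7.25%. Higher levels of the single genes by themselves give more such cells.

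**Figure D3:**
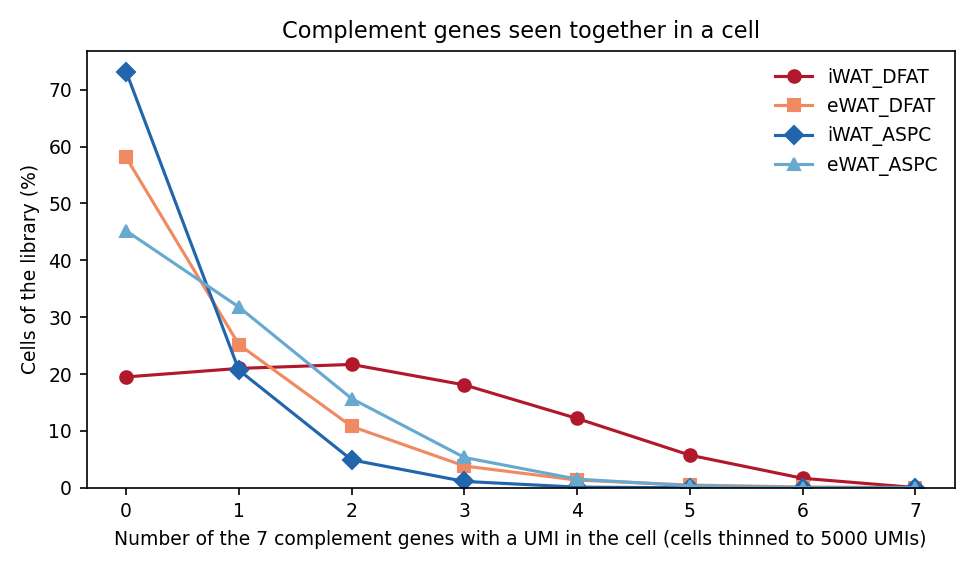
Share of the cells of each library (y axis) by how many of the 7 complement genes had a UMI after each cell was thinned to 5000 UMIs (x axis); each colour is 1 library. None of the genes was seen in 73.2% of iWAT_ASPC cells, while 59.5% of iWAT_DFAT cells held 2 or more.

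Within a library the members had mostly positive correlations across cells, highest in DFAT cells. Over the 21 pairs of members, Pearson's r of log thinned counts across cells had a median of 0.248 in iWAT_DFAT (7629 cells), 0.207 in eWAT_DFAT (6464 cells), 0.0461 in iWAT_ASPC (7424 cells) and 0.0975 in eWAT_ASPC (6745 cells). Of the 84 values 83 were above 0. The share above 0 over other pairs of genes was not computed, so this count is not read as particular to the members. The members' shared trend with depth, given below, was not removed. The r values describe cells that share a library, and low counts hold r near 0. C3 and Serping1 had the highest mean r over the libraries, with 0.52 in iWAT_DFAT, 0.44 in eWAT_DFAT, 0.108 in iWAT_ASPC and 0.27 in eWAT_ASPC. C4b and Cfb reached at most 0.357 and the neighbours C2 and Cfb at most 0.311.

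The genes most like the members were few. Among 5120 genes at 20 CPM or more in every library, ranked by the mean of the 4 within-library r values, Dcn, which encodes the matrix proteoglycan decorin, came first for C3 (0.353), C1s1 (0.243) and C1ra (0.182). Serping1 itself came first for C4b (0.212) and Cfb (0.22), and second for C3, C1s1, C1ra and C2. Col3a1, a fibrillar collagen gene, came first for Serping1 (0.36), followed by Dcn (0.324) and Igfbp4 (0.255), and second for C4b (0.157). Tmem176a came first for C2 (0.0811), a value too weak to be read, and was among the first 3 for C3, C1s1, C1ra and Cfb. The r of C3 with Dcn was 0.554 in iWAT_DFAT, 0.397 in eWAT_DFAT and 0.41 in eWAT_ASPC but 0.0524 in iWAT_ASPC, where C3 was lowest.

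Cells were then ordered within each library by the summed thinned UMIs of a gene list without any member, and the members' level in the 25% of cells highest for the list was set against that in the 25% lowest. For 20 targets of NF-κB, the transcription factor of inflammatory signalling, all 7 members were higher in the top 25% of both DFAT libraries, with a median log2 ratio of 2.18 in iWAT_DFAT and 2.80 in eWAT_DFAT. The median of the 5120 genes was -0.11 and -0.01. In ASPCs the members' median was 0.49 in iWAT_ASPC, where Cfb was at -0.24 and the intervals of Cfb, C2 and C1ra held 0, and 1.48 in eWAT_ASPC, beside 0.04 and 0.10 for all genes. C3 stood at 89.3 CPM in the lowest and 703 CPM in the highest 25% of iWAT_DFAT cells, a log2 ratio of 2.98 (2.87 to 3.08). The list had a mean of 32.5 and 148 UMIs in the lowest and highest 25% of iWAT_DFAT cells, but 2.47 and 15.1 in iWAT_ASPC. The gene with the most UMIs in it was Cxcl5 (3347 CPM) in iWAT_DFAT and Csf1 (617 CPM) in iWAT_ASPC. The orderings are thus unlike, and the size of the contrast is not compared between libraries.

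Lists of interferon response genes gave the same direction. For 15 genes of the interferon-gamma type response, the median of the members was 2.34 in iWAT_DFAT, 2.58 in eWAT_DFAT, 0.70 in iWAT_ASPC and 1.58 in eWAT_ASPC. For 20 type I interferon-stimulated genes it was 1.87, 2.03, 0.80 and 1.38 in the same order. The medians of the 5120 genes were -0.07, -0.01, -0.03 and -0.03 by the first list and -0.06, -0.02, 0.01 and -0.01 by the second. B2m, H2-K1 and H2-D1, named after their values were seen, held most of the first list's UMIs. They were at 274, 107 and 97.2 of its summed 686 CPM in iWAT_DFAT, and at 285, 60.5 and 68.2 of 486 CPM in iWAT_ASPC. Cells were thus ordered mainly by these genes, and an order by the rest of the list was not tested. All 7 members were above 0 in each of these contrasts, but in iWAT_ASPC the intervals of C2 held 0 for both lists (-0.07 to 1.498 and -0.20 to 1.39), as did that of Cfb for the interferon-gamma type list (-0.80 to 1.09). C4b in eWAT_DFAT had a log2 ratio of 6.73 by the interferon-gamma type list, with 1 UMI in the lowest and 106 in the highest 25% (4.22 to 12.045), and Cfb had 4.67 (3.97 to 5.46).

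Cells with more cell cycle or contractile RNA held less of the members. For 16 cell cycle genes, all 7 members were lower in the highest 25% of every library, with medians of -1.39 in iWAT_DFAT, -1.35 in eWAT_DFAT, -0.69 in iWAT_ASPC and -1.37 in eWAT_ASPC, where the interval of C2 held 0 (-1.23 to 0.26). For 11 contractile genes, which mark myofibroblast-like cells, the medians were -1.58, -1.19, -1.13 and -1.93, and all 7 members were below 0 in each library, though C3 in iWAT_ASPC was at only -0.03 with an interval of -0.49 to 0.42, and that of C2 there, -1.46 to 0.05, held 0 as well. For 10 adipose progenitor genes, among them Pdgfra, Cd34 and Ly6a, the members were higher in the top 25%, with medians of 1.67, 2.00, 1.5 and 2.02. All 7 members were above 0 in each library, so the progenitor genes gave a contrast in iWAT_ASPC that was near those of the other libraries. In the same order of libraries, the medians of the 5120 genes were 0.07, 0.02, 0.07 and 0.03 by cell cycle genes. By contractile genes they were 0.06, -0.06, -0.14 and -0.19, and by progenitor genes -0.08, -0.01, -0.05 and -0.07. The share of all genes with the sign of the members was not counted.

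**Figure D4:**
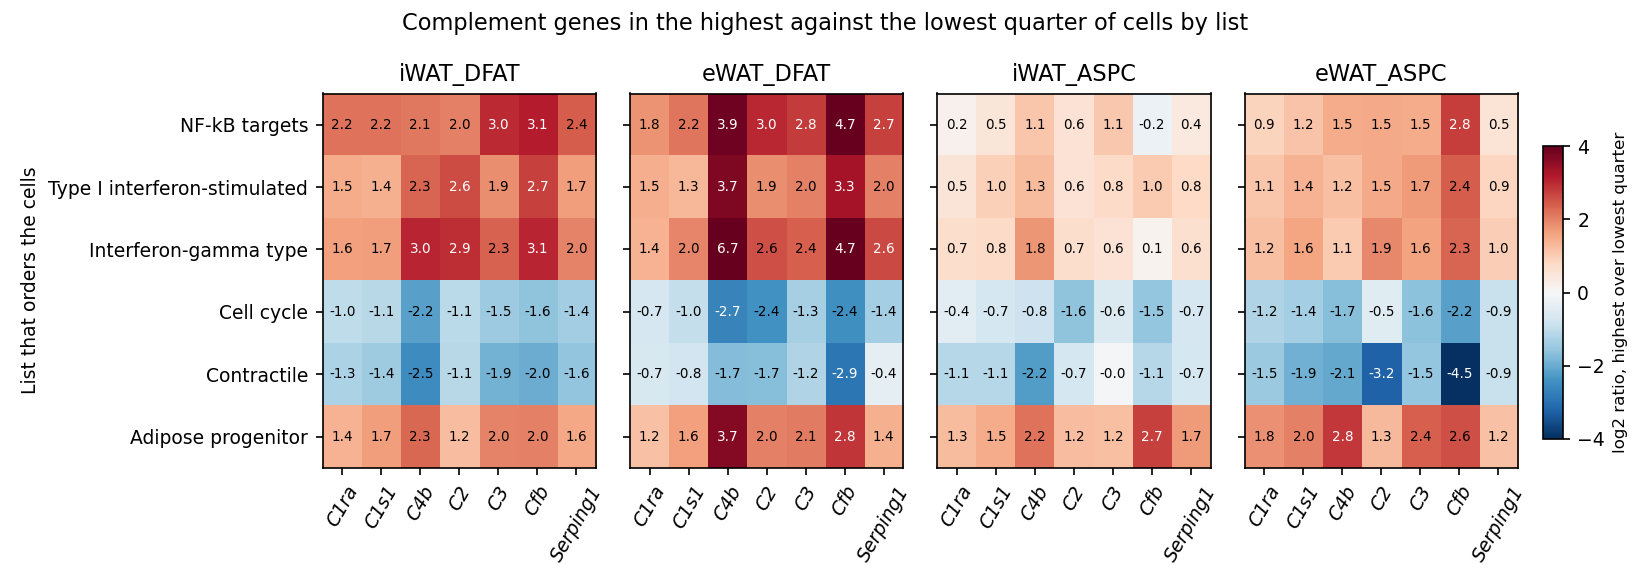
log2 ratio of each complement gene in the highest over the lowest 25% of cells, for 6 gene lists that order the cells, in each of the 4 libraries, with cells thinned to 5000 UMIs; red is higher and blue lower in the highest 25%. Median log2 ratios by NF-κB targets are 2.18 in iWAT_DFAT, 2.80 in eWAT_DFAT and 0.49 in iWAT_ASPC, where the list itself had fewer UMIs per cell. Cell cycle and contractile lists are below 0 throughout.

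Depth moved with the members within every library. Between the 25% of cells with the fewest UMIs and the 25% with the most, all 7 members were higher in the first, with a median log2 ratio of 1.61 in iWAT_DFAT, 2.00 in eWAT_DFAT, 0.85 in iWAT_ASPC and 1.40 in eWAT_ASPC, where all genes had -0.11, -0.02, -0.02 and 0.01. C3 in iWAT_DFAT was at 526 CPM in the shallow cells (median 14432 UMIs) and at 172 CPM in the deep ones (median 35767). The top 25% by NF-κB targets had fewer UMIs than the bottom 25% in iWAT_DFAT (medians of 18715 and 24695) and more in eWAT_DFAT (26947 and 24541.5). Depth thus ran with the NF-κB contrast in the first library and against it in the second. The top 25% by cell cycle genes had more UMIs than the bottom 25% in all 4 libraries, for example 27884 against 19213 in iWAT_DFAT. The same held for contractile genes (25934 against 18423 in iWAT_DFAT). By both interferon lists and by progenitor genes, the top 25% had fewer UMIs in all 4 libraries. In iWAT_DFAT this was 18854 against 24865 by the interferon-gamma type list and 18995 against 25351 by progenitor genes. For these lists depth ran with the members' contrasts, and its part in them was not tested. Cells of iWAT_DFAT were shallower than those of eWAT_DFAT (medians of 22111 and 27425 UMIs), so depth ran with that comparison too. Among cells of 20000 to 30000 UMIs alone, a range chosen after seeing the data, the same 6 members stayed at least 2-fold higher in iWAT_DFAT than in eWAT_DFAT. The log2 ratios of C3 (1.40), Serping1 (1.64), C1ra (2.27) and C1s1 (2.49) fell below their main intervals. Those of C4b (2.71) and Cfb (2.29) stayed inside.

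In eWAT_ASPC, 525 cells (7.78%) had UMIs of 3 or more of 8 markers of the mesothelium, the lining of the visceral fat pad, against 61 cells in eWAT_DFAT, 5 in iWAT_ASPC and 0 in iWAT_DFAT. In these 525 cells C2 was at 21.4 CPM (19.0 to 24.0), against 1.94 CPM in the other cells of the library, and C3 was at 310 CPM (301 to 320) against 76.0. C1s1 was at 83.0 CPM against 16.4, C1ra at 52.4 against 12.9 and Cfb at 14.96 against 2.27. The inhibitor gene Serping1 (114 against 107 CPM) and C4b (5.78 against 4.46 CPM) were close to the other cells. The median log2 ratio was 2.03 for the members and 0.07 for all genes. In the 61 cells of eWAT_DFAT, C1s1 (44.04 against 14.6 CPM), C1ra (23.96 against 10.7), C2 (5.18 against 1.48) and C3 (144 against 86.6) were higher too. Cfb (8.42 CPM, 4.48 to 14.4, against 10.4) was not, Serping1 was lower (33.03 against 70.1) and C4b had 0 UMIs, which allows up to 2.39 CPM.

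Without mesothelial-marker cells, a removal chosen after seeing the data, the ASPC depot ratio of C3 was -3.11 in place of -3.38. That of C2 was 0.47 in place of -0.29 and so changed sign, and those of C1s1 and Cfb were -0.57 and -0.43 in place of -0.92 and -0.89. C3 thus stayed past 2-fold without these cells.

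Cells that carry adipocyte markers, themselves products of the cells from which DFAT cells derive, were 138 (2.13%) in eWAT_DFAT, 18 in iWAT_DFAT and 1 in each ASPC library. They had UMIs of 3 or more of 7 genes such as Adipoq, Plin1 and the complement gene Cfd. In the 138 cells Cfb was at 169 CPM (155 to 184), against 7.56 CPM in the other cells of the library. C3 was at 411 CPM (389 to 433) against 81.4, C4b at 35.1 (28.9 to 42.2) against 2.14 and C2 at 20.2 (15.6 to 25.8) against 1.18. C1s1, C1ra and Serping1 had smaller log2 ratios of 1.44, 1.18 and 1.17, so the alternative pathway enzyme and the C4 and C2 genes stood out most. The median log2 ratio was 2.33 for the members and -0.17 for all genes.

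The 18 cells of iWAT_DFAT had the same leading genes, with C2 at 28.1 CPM (14.5 to 49.0) against 2.49, C4b at 173 CPM (136 to 217) against 19.0 and Cfb at 304 CPM (254 to 361) against 49.1. C1s1 was at 98.2 CPM (70.8 to 133) there, against 94.1 in the other cells. Without adipocyte-marker cells, a removal chosen after seeing the data, the DFAT depot ratio of C2 was 1.07 in place of 0.75 and that of C4b 3.15 in place of 2.84. The log2 ratio of Cfb between eWAT_DFAT and eWAT_ASPC was then 1.27 in place of 1.72, still past 2-fold.

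**Figure D5:**
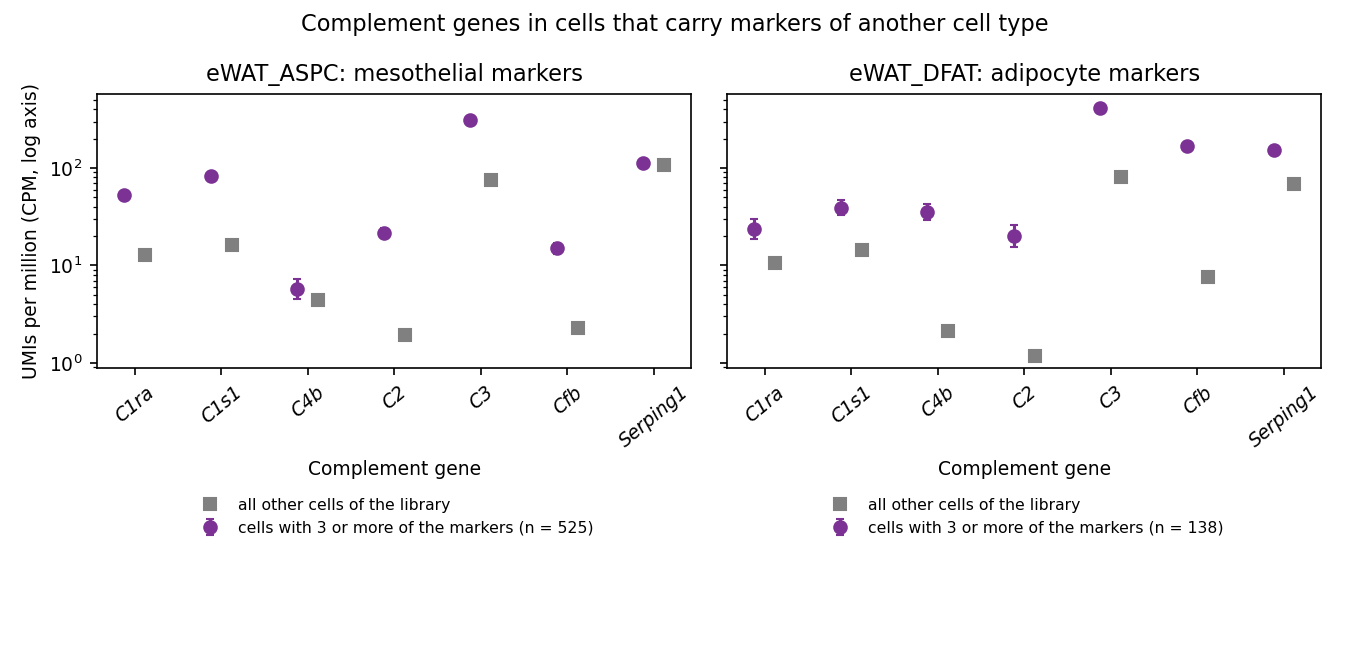
Level of each complement gene in CPM (log axis) in the 525 cells with 3 or more mesothelial markers of the eWAT_ASPC library and in the 138 cells with 3 or more adipocyte markers of the eWAT_DFAT library, each beside all other cells of the same library; bars are exact 95% Poisson intervals. C2 is at 21.4 and 20.2 CPM in the marker cells and at 1.94 and 1.18 CPM in the other cells.

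Pericyte-marker cells were set against the other cells of their library. In eWAT_DFAT, 118 cells with 3 or more of 7 pericyte markers had Serping1 at 309 CPM (289 to 331) against 66.2 in the other cells. C4b, C2, C1s1 and Cfb were also over 2-fold higher in them, with log2 ratios of 1.66, 1.56, 1.499 and 1.19, and C1ra had 0.60. C3 was the exception, at 72.2 CPM (62.6 to 82.9) against 87.3. In 80 such cells of eWAT_ASPC, Serping1 was at 111 CPM (99.7 to 124) against 107 and C3 at 34.3 CPM (27.9 to 41.7) against 92.8. C1s1, C1ra, C4b, C2 and Cfb were lower there as C3 was, the other direction from eWAT_DFAT. Their log2 ratios were -0.81, -1.27, -1.42, -1.68 and -2.21, those of C4b, C2 and Cfb from 5, 3 and 2 UMIs. In 181 such cells of iWAT_ASPC, Serping1 and C3 were both higher, Serping1 at 74.4 CPM (67.7 to 81.7) against 38.04 and C3 at 13.1 CPM (10.3 to 16.3) against 8.68. In 20 such cells of iWAT_DFAT, C4b was at 104 CPM (75.6 to 139) against 19.2 and C2, from 5 UMIs, at 11.5 CPM (3.74 to 26.9) against 2.53, while the intervals of the other members held the level of the other cells. Glial-marker cells of iWAT_ASPC had lower levels than the other cells for all 7 members, with a median log2 ratio of -0.97. The intervals of C4b, C2 and Cfb, from 5, 4 and 2 UMIs, held the level of the other cells. Over 5120 genes the 5th to 95th percentiles of this ratio were -1.31 to 1.05, which holds the median of the members. Cells with markers of any other type were 0.957% of iWAT_DFAT, 7.16% of eWAT_DFAT, 5.32% of iWAT_ASPC and 11.7% of eWAT_ASPC.

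The rest of the cascade was sparse in these cells. Of 54 other complement genes listed, 52 were counted, 13 reached 5 CPM in at least 1 library and 35 were under 1 CPM in all. Over the list, 1 of the 11 at 5 CPM or more was at least 2-fold higher and 3 lower in iWAT_DFAT than in eWAT_DFAT (8.29% and 3.95% of all genes), and 2 of 10 were higher and 2 lower in iWAT_DFAT than in iWAT_ASPC (9.91% and 5.18% of all genes). Counts this small are not read as a result about the list. C1qb, which encodes a chain of C1q, a product mainly of macrophages, had 0 UMIs in iWAT_DFAT and reached 2.55 CPM in eWAT_ASPC. In iWAT_DFAT, 3 UMIs would be 0.0163 CPM. The 7 genes of the terminal, pore-forming steps summed to 0.947, 0.657, 1.40 and 0.653 CPM in iWAT_DFAT, eWAT_DFAT, iWAT_ASPC and eWAT_ASPC. C1qb was named after its values were seen.

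Among genes of the initiating steps, C1rl, a relative of C1ra, was at 8.29 CPM in iWAT_DFAT, 3.18 in eWAT_DFAT, 4.45 in iWAT_ASPC and 4.73 in eWAT_ASPC. Colec12, a scavenger receptor of the collectin family, was at 209, 117, 63.1 and 88.6 CPM in the same order. Both were highest in iWAT_DFAT, as most members were. Masp1, a protease of the lectin pathway, was highest in iWAT_ASPC, at 2.74, 2.20, 9.12 and 0.496 CPM.

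Cfd, whose product activates factor B, did not have the order of Cfb. It was at 3.30 CPM in iWAT_DFAT, 21.1 in eWAT_DFAT, 0.0100 in iWAT_ASPC (2 UMIs) and 0.228 in eWAT_ASPC, and so was highest in the library with the most adipocyte-marker cells, of which it is a marker. Clu, which encodes clusterin, a soluble regulator of the terminal steps, was highest in eWAT_ASPC, at 4.56, 3.71, 2.06 and 12.4 CPM.

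Among the membrane regulators, Cd59a, whose product blocks the final pore, was lowest in iWAT_DFAT, where most members were highest. It was at 2.22 CPM in iWAT_DFAT, 15.9 in eWAT_DFAT, 37.9 in iWAT_ASPC and 34.0 in eWAT_ASPC, a log2 ratio of -4.09 (-4.24 to -3.95) between the iWAT libraries. Cr1l (Crry), the general membrane regulator of rodents, was near even at 40.8, 39.4, 46.7 and 42.04 CPM. Cd55, whose product speeds the decay of the C3-cutting enzymes, was at 11.6, 8.17, 5.58 and 9.69 CPM, and Cd46 at 5.48, 3.18, 3.08 and 2.78 CPM. Csmd1 was at 38.0, 25.5, 27.3 and 0.952 CPM, and so was low in eWAT_ASPC alone. Of the receptors and binding proteins, Cd93 was at 1.92, 9.08, 1.79 and 4.30 CPM and C1qbp at 147, 233, 160 and 143 CPM.

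Receptors and transcription factors known to induce complement genes were counted over a list of 24. Of these, 12 were at least 2-fold higher and 0 lower in iWAT_DFAT than in eWAT_DFAT, among them Ifnar1, Il6st, Il1r1, Tnfrsf1a, Stat2, Stat3, Irf7, Irf9, Nfkb1, Nfkbiz and Cebpd, with a median log2 ratio of 1.02. Over all genes the shares were 8.29% higher and 3.95% lower. Between iWAT_DFAT and iWAT_ASPC, 15 were higher and 0 lower (9.91% and 5.18% of all genes), with Ifnar2, Irf1, Nfkb2, Rel, Relb and Cebpb past 2-fold here and Il6st, Tnfrsf1a and Stat2 not. Irf7 and Cebpb were at least 2-fold lower in iWAT_ASPC than in eWAT_ASPC, and 0 were higher (3.94% and 2.94% of all genes). Between eWAT_DFAT and eWAT_ASPC, Nfkb1 and Rel were higher and Stat2 and Cebpd lower, which is near the shares of all genes (6.44% and 6.67%). The list holds NF-κB genes that the study named on these samples, so it is not independent evidence of its direction.

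The levels of single genes of that list had different orders. Irf7, an interferon-response factor, was at 16.0 CPM in iWAT_DFAT, 5.64 in eWAT_DFAT, 2.06 in iWAT_ASPC and 7.87 in eWAT_ASPC, the order of C1ra, C1s1 and Serping1. Cebpd, a C/EBP factor of the acute-phase response, was at 315, 95.5, 144 and 237 CPM, with the same first and second library. Il1r1, the signalling receptor of interleukin-1, was at 881, 183, 106 and 95.5 CPM, and Nfkb1 at 307, 149, 55.5 and 50.4 CPM, both higher in the DFAT libraries as Cfb was.

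The response lists themselves differed between libraries. The shares of all genes past 2-fold, to be set beside the counts that follow, were 8.29% higher and 3.95% lower in iWAT_DFAT than in eWAT_DFAT, 2.94% and 3.94% in iWAT_ASPC against eWAT_ASPC, 9.91% and 5.18% in iWAT_DFAT against iWAT_ASPC, and 6.44% and 6.67% in eWAT_DFAT against eWAT_ASPC. Of the 16 type I interferon-stimulated genes at 5 CPM or more, 10 were at least 2-fold higher and 0 lower in iWAT_DFAT than in eWAT_DFAT, and 9 were at least 2-fold lower and 0 higher in iWAT_ASPC than in eWAT_ASPC. The signs are those of the members in both depot comparisons. Of 20 NF-κB targets, 7 were higher and 1 lower between the DFAT libraries, and 4 of 16 were higher and 2 lower between the ASPC libraries. In eWAT_DFAT against eWAT_ASPC, 13 of 20 NF-κB targets were higher and 0 lower, while 8 of 16 type I genes were lower and 0 higher. Contractile genes ran against the members in both iWAT_DFAT comparisons, as they did within libraries: 9 of 11 were at least 2-fold lower and 0 higher in iWAT_DFAT than in eWAT_DFAT (median log2 ratio -3.35), and 9 of 10 were lower and 0 higher in iWAT_DFAT than in iWAT_ASPC (median -3.85). Between the ASPC libraries they ran with the members: 3 of 11 were lower and 0 higher in iWAT_ASPC than in eWAT_ASPC (median -0.67). In eWAT_DFAT against eWAT_ASPC, where the members split, 6 of 11 were lower and 0 higher (median -1.45). The part of these lists in the complement ratios was not tested.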

How the data were processed

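Cells were profiled with 10x 3′ scRNA-seq, 1 library per condition. The authors deposited raw UMI counts per gene and barcode, unfiltered, made with Cell Ranger on mm10. The labels' notes give version 7.0.0, the file headers 7.1.0 for 3 libraries and 4 for iWAT_ASPC. The study's methods count introns. Whether the iWAT_ASPC table was counted likewise is not given in the sources used here. Genes spanning over 100000 bases had a median log2 ratio of 0.13 in iWAT_ASPC over eWAT_ASPC, against -0.01 for genes under 10000 bases, and of 0.31 in iWAT_DFAT over iWAT_ASPC, against -0.07. The comparisons without iWAT_ASPC also had higher ratios for the long genes. Their medians were 0.29 against -0.04 in iWAT_DFAT over eWAT_DFAT and 0.15 against -0.01 in eWAT_DFAT over eWAT_ASPC. The part of gene span or of the version in the ratios was not tested. 3′ counts are not scaled to length, so levels are compared between libraries, and shares of the members' summed UMIs are shares of counts.

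Counts were summed over the kept cells and scaled to CPM with pandas 2.3.3 and numpy 2.4.6 in Python 3.11.15, and exact intervals were taken with scipy 1.17.1. Ratios compare 1 library with 1, without a replicate check. A difference was counted at 2-fold, over all 7 members without a minimum and over all genes at 5 CPM or more in either library. No doublet was removed in the main values, and removal by Scrublet score (scanpy 1.11.5) was an alternative. CellBender and Harmony were not run. Each cell was thinned to 5000 UMIs (fixed seed) for shares, correlations and the 25% contrasts, with ties ordered by barcode. All kept cells have at least 5000 UMIs, so none was left out. The scripts were tested on simulated data.

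The members and the gene lists were chosen with earlier results of these data known. Named were the members, other complement genes at 5 CPM or more in at least 1 library, listed regulators past 2-fold in at least 1 comparison, and the 3 genes most like each member. Some genes that this rule names are not reported here. Alternatives changed the cell filters, the free RNA, the scaling, the weighting of cells and the gene minimum.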

Additional observations from a re-analysis of the deposited data

Results flagged for a closer look

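The depot difference had opposite signs in DFAT cells and ASPCs. The log2 ratio of iWAT over eWAT in DFAT cells minus that in ASPCs was 5.02 for C3, 3.59 for C1s1, 3.37 for C1ra, 3.33 for Serping1, 3.16 for Cfb, 3.00 for C4b and 1.04 for C2. Each condition is 1 library, so the difference was not tested, and cell kind, culture and library cannot be told apart. For C2 the ASPC ratio was above 0 in 3 alternatives, so that its signs were then not opposite.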

How the results depend on the processing

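Of 104 counts of members under an alternative, 100 stayed within 1.5 times the main count and 4 did not stay. The changed gene minimum could not move a count, because the members carry no minimum, so its entries stayed by construction. With every cell weighted equally, 4 members in place of 2 were at least 2-fold lower in iWAT_ASPC than in eWAT_ASPC, with C1s1 at -1.05 and Cfb at -1.21. Of members at least 2-fold lower in eWAT_DFAT than in eWAT_ASPC there was 1, C2. There were 0 with every cell weighted equally (C2 at -0.95), 0 without mesothelial-marker cells (C2 at -0.39) and 2 without adipocyte-marker cells (C2 at -1.47, C4b at -1.09). Removing cells with markers of any other type left 1, but C4b (-1.11) in place of C2 (-0.80), and in cells of 20000 to 30000 UMIs it was C4b (-1.29) in place of C2 (-0.99). The causes were not tested.

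Of 364 single log2 ratios, 269 stayed within the 95% interval of the main value and 95 moved out of it. Here too the ratios under the changed gene minimum equal the main values by construction. The ASPC depot ratio of C2 turned to 0.44 without cells of other types, 0.47 without mesothelial-marker cells and 0.03 in cells of 20000 to 30000 UMIs. The DFAT depot ratio of C2 passed 2-fold, at 1.15, without cells of other types and, at 1.07, without adipocyte-marker cells. The C2 ratio of iWAT_DFAT to iWAT_ASPC was 0.07 with cells weighted equally, and the C3 ratio of eWAT_DFAT to eWAT_ASPC ranged from -0.18 to 0.19. The other 6 members kept at least 2-fold in both iWAT_DFAT comparisons under every alternative run, and C3 stayed between -3.52 and -3.09 in the ASPC depot comparison. Removing mesothelial-marker cells, adipocyte-marker cells or cells outside 20000 to 30000 UMIs was chosen after seeing the data. No paired analysis was possible because each condition has 1 library. Levels that rest on few UMIs include C2 (281 to 646 UMIs per library), Cfb in ASPCs (336 and 619) and C4b in eWAT_DFAT (503).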
